A study of Mus musculus with 12 samples.

Results

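The ABC transporter genes, which encode the ATP-binding cassette proteins of subfamilies A to G, were followed in fetal mouse gonads. A gene was a member if its symbol was Abc, a subfamily letter from a to g and a number, with or without a final letter. This gave 48 of the 30792 genes named on the array, with 16 in subfamily A, 9 in B, 10 in C, 3 in D, 1 in E, 3 in F and 6 in G. Each member was read by 1 transcript cluster, the array's unit for a locus.

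RNA was measured on the Affymetrix Mouse Transcriptome Array 1.0 at 14.5 days post coitum, on 12 arrays in 3 groups of 4. XY FOXL2+ gonads were XY and carried Sf1-cre and Rosa26-CAG-LSL-Foxl2+/f, an allele from which Foxl2 is transcribed once Cre has removed a stop cassette. XX control and XY control gonads carried Sf1-Cre+/Tg with an unmodified Rosa26 locus (Rosa26+/+), so the Cre transgene was common to all 3 groups. Sf1-cre is active in somatic cells of the gonad, not in germ cells. The background was mixed 129Sv and C57Bl/6J, and each array held the RNA of 1 pair of gonads without the mesonephros. The labels state no litter or batch, so p-values measure the spread between these embryos only.

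ABC proteins bind and split ATP. Most are membrane pumps that move lipids, sterols, bile salts, drugs or conjugated metabolites out of the cytoplasm or into organelles. The E and F proteins lack membrane-spanning parts and act in translation, and SUR1 and SUR2 (Abcc8, Abcc9) pump nothing and instead regulate potassium channels. In the gonad, cholesterol is the starting material of steroid hormones, and its export by ABCA1 and ABCG1 runs against its uptake by receptors such as SR-BI (Scarb1). FOXL2 is a forkhead transcription factor of ovarian granulosa cells.

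Foxl2 read 7.67, 8.62, 7.18 and 6.72 in XY FOXL2+ gonads, 8.08, 7.30, 7.14 and 7.39 in XX controls, and 5.07, 5.55, 5.44 and 5.33 in XY controls (log2 signal, replicates 1 to 4, the order used throughout). All XY FOXL2+ and XX control arrays lay above all XY control arrays. Whether its probes read RNA of the transgene, of the resident gene or of both was not examined here. The means of the Sertoli, fetal Leydig and granulosa cell lists followed the labels in both control groups, and those of XY FOXL2+ gonads lay between them. Other lists did not all do so. The macrophage, endothelial and erythroid lists given below averaged higher in XY FOXL2+ gonads than in both controls. The germ cell list averaged 11.22 in XY FOXL2+ gonads, 11.26 in XX controls and 11.78 in XY controls. The mean log2 signal of 8 Sertoli cell genes was 7.65 to 9.70 in XY FOXL2+ gonads, 6.95 to 7.0 in XX controls and 11.27 to 11.51 in XY controls. For 6 granulosa cell genes it was 8.05 to 10.04, 10.17 to 10.52 and 7.39 to 7.46 in those groups. These 6 include Foxl2 itself, which the allele expresses. Of the others, Fst and Runx1 were called (as defined below) as higher in XY FOXL2+ than in XY control gonads. Rspo1, Wnt4 and Irx3 were not called there. XY FOXL2+ arrays 3 and 4 had the higher Sertoli and the lower granulosa values, so this group was the most uneven. In each group, arrays had a Spearman correlation of at least 0.981 with each other over all clusters, and no 2 arrays were identical.

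Mean signals of single members over the 12 arrays ran from 4.93 to 14.63 on the log2 scale. Of the 48, 30 lay above and 18 at or below 6.23, the median of all clusters. The table has no detection calls. The 23 background probe sets of the array had medians of 3.99 to 4.17, below the mean of every member. In XX controls, which lack them, 4 Y-linked genes also read higher than these probe sets, at means of 5.99, 6.24, 6.27 and 6.94. Whether their probes also read RNA of other genes was not examined here. Some members averaged less than this over the 12 arrays, such as Abca15 at 4.93 and Abcb11 at 4.97. The level at which a given member would read when silent is not known. The Y-linked genes in XX controls are used below as a point of comparison, not as a measured floor. Where a group stood near their level, a difference from it may read too small.

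A member was called where its Benjamini-Hochberg adjusted p, over all 65956 clusters in 1 limma fit of the 12 arrays, was under 0.05. Between XY FOXL2+ and XY control gonads, 6 members rose and 3 fell, which is 18.8% of the 48, against 7.12% of all clusters (2.46% higher and 4.67% lower). Between XX and XY controls, 8 members were higher and 6 lower, or 29.2%, against 17.4% of all clusters (7.17% higher and 10.2% lower). Between XY FOXL2+ gonads and XX controls, 4 were higher and 3 lower, or 14.6%, against 5.51% of all clusters (2.87% higher and 2.64% lower). Clusters with a signal above the median were called more often in general, at 11.9%, 28.6% and 9.33% in these 3 comparisons, and of the 30 members above that level 26.7%, 36.7% and 23.3% were called. Each pair of comparisons shares 1 group of arrays, so their counts are not independent. Counts by role, list or subfamily below stand against these same shares of all clusters, and most of those sets are small.

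The sequence upstream of 3 members that rose in XY FOXL2+ gonads is shown, because FOXL2 belongs to the forkhead proteins and SF1 (Nr5a1), whose regulatory sequence drives the Cre, is a nuclear receptor. Abca9 had the largest rise and held a forkhead core in this window. Abcc9 rose against both controls and held neither motif searched. Abcc2 held an SF1 half-site. Nr5a1 itself differed by -1.68 on the log2 scale in XY FOXL2+ against XY control gonads (limma, adjusted p = 6.4e-08). It differed by -0.44 in XY FOXL2+ gonads against XX controls (limma, adjusted p = 0.00532) and by -1.24 between XX and XY controls (limma, adjusted p = 5.27e-07). Sequences are the 250 bases before the annotated start, from RefSeq on GRCm38.p6, read 5′ to 3′ on the gene's own strand, with motif matches in capitals.
Abca9, chr11:110168154-110168403, minus strand: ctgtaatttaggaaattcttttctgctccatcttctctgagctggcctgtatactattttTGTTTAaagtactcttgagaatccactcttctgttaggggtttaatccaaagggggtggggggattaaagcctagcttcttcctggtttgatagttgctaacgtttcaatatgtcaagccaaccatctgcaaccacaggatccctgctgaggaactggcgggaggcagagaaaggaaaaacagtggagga
Abcc9, chr6:142702275-142702524, minus strand: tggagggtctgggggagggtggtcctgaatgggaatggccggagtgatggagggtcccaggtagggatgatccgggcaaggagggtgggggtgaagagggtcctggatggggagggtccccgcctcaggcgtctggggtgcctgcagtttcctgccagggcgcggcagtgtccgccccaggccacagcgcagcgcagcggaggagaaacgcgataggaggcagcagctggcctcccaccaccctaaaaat
Abcc2, chr19:43782058-43782307, plus strand: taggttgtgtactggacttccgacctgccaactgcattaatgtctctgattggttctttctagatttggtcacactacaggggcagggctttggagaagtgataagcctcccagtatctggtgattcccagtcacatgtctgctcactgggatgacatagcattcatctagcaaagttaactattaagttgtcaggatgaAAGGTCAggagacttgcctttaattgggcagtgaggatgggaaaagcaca

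The forkhead core searched was TAAACA, which on the other strand reads TGTTTA. The SF1 half-site searched was AAGGTCA, which on the other strand reads TGACCTT. Neither motif contains the other. The forkhead core stood in 12% and the half-site in 4.08% of the 32851 windows of this length in the table. Of 45 windows of 38 members, 5 held the forkhead core (Abca1, Abca9, Abcb1a, Abcg5 and Abcg8) and 3 held the half-site (Abcc10, Abcc2 and Abcg2). A match describes letters only, and of the forkhead-core members only Abca9 was called in any comparison.

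The 5 sterol exporters did not move as a group. Abcg1, which passes cholesterol to high-density lipoprotein, fell in XY FOXL2+ gonads to the level of XX controls. It read 7.79, 7.87, 7.94 and 7.89 in XY FOXL2+ gonads, 7.88, 8.02, 8.01 and 7.96 in XX controls, and 8.83, 8.98, 8.73 and 8.75 in XY controls. All XY control arrays lay above all others, with no overlap, and the XY FOXL2+ arrays differed little among themselves. The log2 difference was -0.95 ± 0.08 (SE, n = 4 against 4 arrays) for XY FOXL2+ against XY control gonads, or 1.93-fold lower (limma, adjusted p = 1.23e-05). For XX against XY controls it was -0.86 ± 0.08 (limma, adjusted p = 1.36e-05). Between XY FOXL2+ gonads and XX controls it was -0.09, with a 95% interval from -0.27 to 0.08, and was not called. In whole gonads, fewer cells of a type and less RNA per cell cannot be told apart.

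Abca1, which loads cholesterol and phospholipid onto apolipoprotein A-I and shares its liver X receptor control with Abcg1, gave no call. Its log2 signal was 11.28, 11.58, 11.88 and 11.92 in XY FOXL2+ gonads, 11.54, 11.51, 11.41 and 11.50 in XX controls, and 11.85, 11.59, 11.53 and 11.35 in XY controls. The 3 groups overlapped. The difference between XY FOXL2+ and XY control gonads was 0.08, with a 95% interval from -0.22 to 0.39. A fall of the size seen in Abcg1 lies outside that interval.

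Abcg4, the closest relative of Abcg1 and best known from brain, read 8.53, 7.86, 7.39 and 7.40 in XY FOXL2+ gonads, 7.47, 7.41, 7.53 and 7.29 in XX controls, and 8.27, 7.94, 8.37 and 8.39 in XY controls. XX controls lay wholly below XY controls, while the XY FOXL2+ arrays spread over both ranges. It was lower in XX than in XY controls by a log2 difference of -0.82 ± 0.21 (SE, n = 4 each; limma, adjusted p = 0.0155; 0.0516 and no longer called after quantile normalization). For XY FOXL2+ against XY control gonads the difference was -0.45 with an adjusted p of 0.259 in the limma fit, and it was called without XY FOXL2+ replicate 1 (difference -0.69, limma adjusted p = 0.00969).

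Abcg5 and Abcg8 form the pump that excretes plant sterols and cholesterol in liver and gut, and both read near the level of the Y-linked genes in XX controls. Abcg5 read 6.01, 5.96, 5.88 and 6.03 in XY FOXL2+ gonads, 5.99, 5.97, 6.00 and 6.19 in XX controls, and 5.97, 5.97, 5.89 and 5.78 in XY controls. Abcg8 read 5.94, 5.88, 5.96 and 6.14 in XY FOXL2+ gonads, 5.87, 5.83, 5.99 and 5.99 in XX controls, and 5.98, 5.95, 5.88 and 5.80 in XY controls. Their groups overlapped in all 3 comparisons.

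Some other genes of sterol handling fell as well. Of 11 measured genes of uptake, storage and traffic, 4 fell and 0 rose between XY FOXL2+ and XY control gonads, and 6 were lower and 1 higher between XX and XY controls. Scarb1, the receptor that takes cholesteryl ester from high-density lipoprotein, read 9.59, 9.36, 9.92 and 9.72 in XY FOXL2+ gonads, 9.49, 9.02, 9.33 and 9.21 in XX controls, and 12.41, 12.52, 12.72 and 12.43 in XY controls. It was 7.32-fold lower in XY FOXL2+ than in XY control gonads (limma, adjusted p = 7.52e-08). Insig1, which holds back cholesterol synthesis, fell by 1.65 on the log2 scale, Stard4, a cytosolic sterol carrier, by 0.86, and Lipe, which frees stored cholesterol, by 0.41. The lipoprotein receptor genes Vldlr and Lrp1 differed by -0.09 and -0.27 and were not called, so Scarb1 was the only one of these 3 receptor genes called.

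Npc1, which moves cholesterol out of lysosomes, took another course. It read 10.72, 11.36, 10.61 and 10.44 in XY FOXL2+ gonads, 11.74, 11.81, 11.71 and 11.68 in XX controls, and 10.47, 10.43, 10.44 and 10.48 in XY controls. XX controls lay above both other groups (log2 difference 1.28 against XY controls), and XY FOXL2+ against XY control gonads was not called. Of 14 measured sensors, target genes and lipoprotein genes, 1 rose and 4 fell between XY FOXL2+ and XY control gonads, and 1 was higher and 5 lower between XX and XY controls. Srebf2, the master regulator of cholesterol synthesis, differed by -1.21 and Pltp, which transfers phospholipid between lipoproteins, by -1.17 in XY FOXL2+ against XY control gonads. Mylip, a liver X receptor target that degrades lipoprotein receptors, rose by 0.87, and the receptor gene Nr1h3 itself was not called.

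The fall of Abcg1 stood beside lower signals of the cells that make and feed steroid hormones in the testis. All 4 measured fetal Leydig cell genes and 7 of 8 Sertoli cell genes fell in XY FOXL2+ against XY control gonads. The mean log2 signal of the Leydig cell genes was 7.91 to 11.17 in XY FOXL2+ gonads, 7.83 to 8.07 in XX controls and 15.78 to 16.17 in XY controls. Among XY FOXL2+ gonads it was 8.66, 7.91, 11.09 and 11.17, whereas Abcg1 spanned only 7.79 to 7.94 on these arrays. The part of these cells in the result was not tested.

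**Figure D1:**
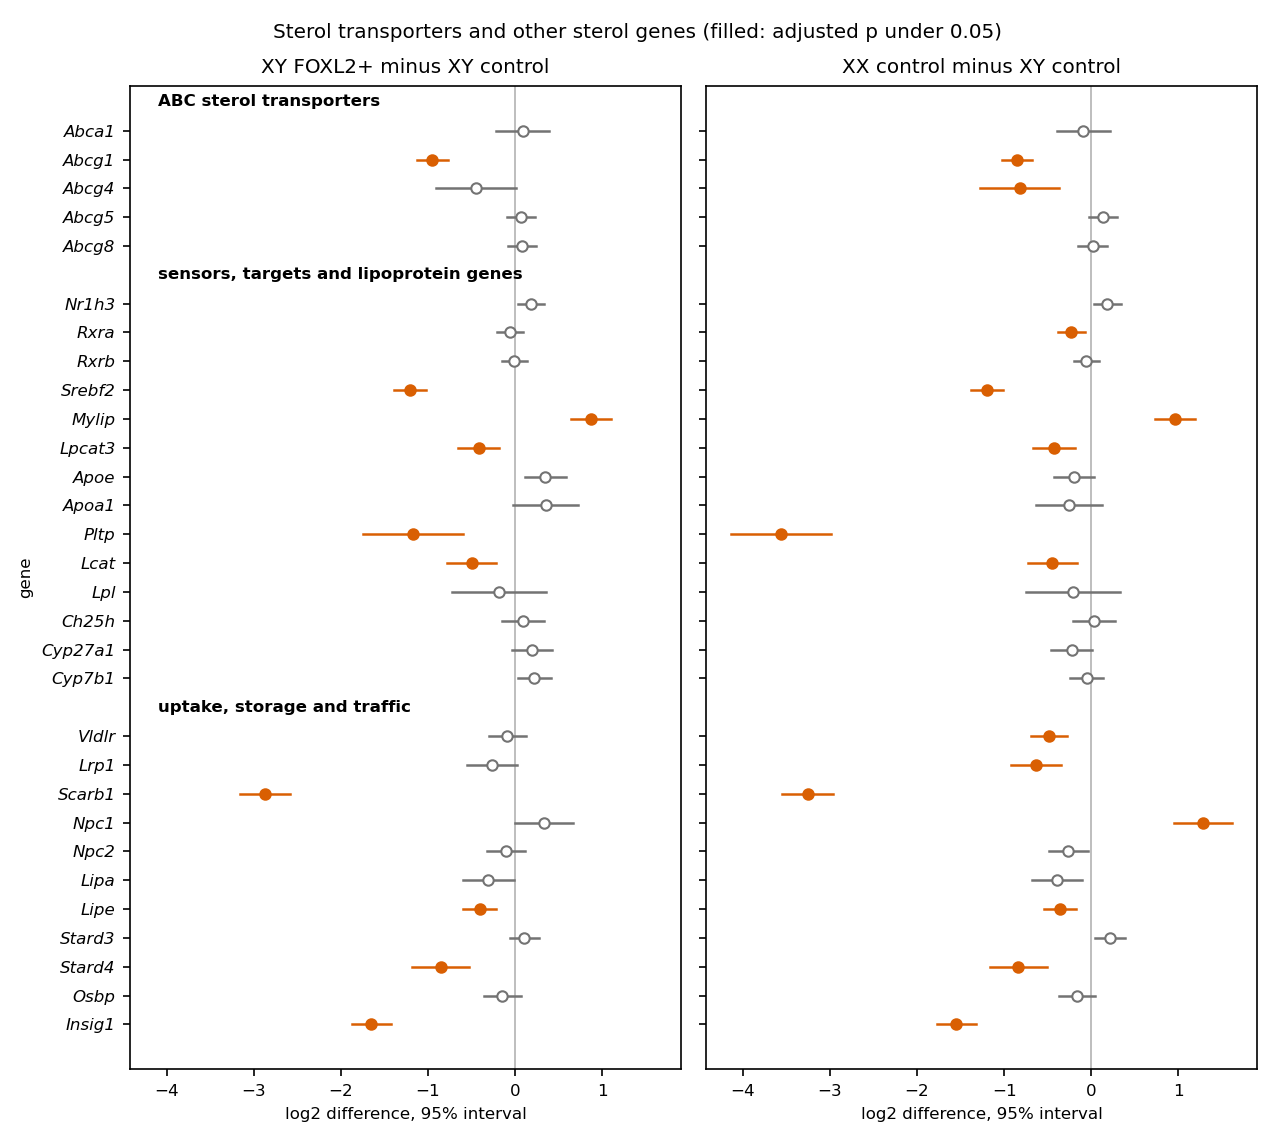
Log2 difference with its 95% interval for the 5 ABC sterol transporters, 14 sensors, targets and lipoprotein genes, and 11 genes of uptake, storage and traffic, in XY FOXL2+ (left) and XX control gonads (right) against XY controls, 4 arrays per group. Filled points have an adjusted p under 0.05; Abcg1 lies at -0.95 and -0.86, Abca1 near 0 and Scarb1 at -2.87 and -3.25.

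Of 9 measured members known to move other lipids, 2 rose and 0 fell between XY FOXL2+ and XY control gonads (22.2%, against 7.12% of all clusters). Between XX and XY controls, 3 were higher and 2 lower (55.6%, against 17.4% of all clusters). Abca3, which packs surfactant lipid in the lung, read 9.35, 8.95, 8.06 and 7.99 in XY FOXL2+ gonads, 9.25, 9.07, 9.18 and 8.87 in XX controls, and 7.39, 7.52, 7.66 and 8.02 in XY controls. XX controls lay wholly above XY controls, by 1.44 ± 0.26 on the log2 scale (SE; limma, adjusted p = 0.00177). XY FOXL2+ arrays 1 and 2 were at the level of XX controls, while array 4 lay under the highest XY control. The difference of 0.94 between XY FOXL2+ and XY control gonads had an adjusted p of 0.0493 in the limma fit. It was not called without XY FOXL2+ replicate 1 or 2 or any 1 of the 8 control arrays, with adjusted p between 0.0512 and 0.13. A fit of those 2 groups alone (limma, adjusted p = 0.136) and array weights (0.0882) gave no call either. The same held with the replicate number as a block (0.0748) and after centring on array medians (0.0641).

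Abca4, a retinoid flippase of photoreceptors, rose in XY FOXL2+ gonads and was higher in XX than in XY controls. It read 7.14, 7.50, 6.80 and 6.66 in XY FOXL2+ gonads, 7.42, 7.36, 7.28 and 7.29 in XX controls, and 6.26, 6.30, 6.17 and 6.13 in XY controls. No XY FOXL2+ or XX control array overlapped the XY controls, whose values stood near the level of the Y-linked genes in XX controls. The log2 differences against XY controls were 0.81 ± 0.15 in XY FOXL2+ gonads (SE, limma, adjusted p = 0.00448) and 1.12 ± 0.15 in XX controls (limma, adjusted p = 0.000145). Whether low signal made them read too small was not tested.

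Abca2, a lipid transporter of late endosomes best known from myelin-forming cells, was higher in XX controls than in both XY groups. It read 8.02, 8.87, 8.10 and 8.16 in XY FOXL2+ gonads, 8.98, 9.03, 8.93 and 8.90 in XX controls, and 7.92, 8.11, 8.17 and 8.18 in XY controls. XY FOXL2+ array 2 came close to XX controls and the other 3 lay within the range of XY controls. XX controls were higher than XY controls by 0.86 (limma, adjusted p = 0.00164). XY FOXL2+ gonads were lower than XX controls by a log2 difference of -0.68 (limma, adjusted p = 0.0239), a call lost without XY FOXL2+ replicate 3 or 4 or any 1 XX control array (adjusted p between 0.0542 and 0.0756). A fit of those 2 groups alone ended it as well (limma, adjusted p = 0.0779).

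Abcd2, which carries very-long-chain fatty acyl-CoA into peroxisomes, went the other way. It read 8.06, 7.71, 8.52 and 9.13 in XY FOXL2+ gonads, 7.97, 7.83, 7.61 and 7.78 in XX controls, and 8.63, 9.06, 9.0 and 9.57 in XY controls. XX controls lay wholly below XY controls, by a log2 difference of -1.27 ± 0.26 (SE; limma, adjusted p = 0.00409). XY FOXL2+ arrays 3 and 4 were the 2 highest of their group, as they were for the Sertoli, Leydig and germ cell lists. The mean log2 signal of 6 germ cell genes was 10.51, 11.23, 11.47 and 11.69 on the XY FOXL2+ arrays. The part of any of these cells in the values of Abcd2 was not tested. The difference of -0.71 between XY FOXL2+ and XY control gonads was not called. Abca12, a lipid transporter of skin, was lower in XX than in XY controls by a log2 difference of -0.23 at a signal of 5.50 in XX and 5.73 in XY controls (limma, adjusted p = 0.0419). That call was lost without any 1 XX control array, XY control replicate 2 or 3 or XY FOXL2+ replicate 4 (adjusted p between 0.0506 and 0.12). Centring on array medians (limma, adjusted p = 0.165), quantile normalization (0.099) and the replicate number as a block (0.081) also ended it.

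Abca9 and Abca6 rose in XY FOXL2+ gonads and were not called between XX and XY controls. Both belong to a run of 5 related genes that lie next to each other on chromosome 11 in the order Abca8b, Abca8a, Abca9, Abca6 and Abca5 (RefSeq, GRCm38.p6). What most of these proteins carry is not well defined. Abca9 read 8.66, 8.49, 9.46 and 9.44 in XY FOXL2+ gonads, 7.24, 6.97, 6.84 and 7.11 in XX controls, and 6.95, 6.79, 6.71 and 6.82 in XY controls. Every XY FOXL2+ array lay above every control, and XX and XY controls overlapped.

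The rise of Abca9 was the largest of the members, at 2.20 ± 0.20 on the log2 scale against XY controls (SE, limma, adjusted p = 1.97e-05). This rise, with a 95% interval from 1.77 to 2.62 on the log2 scale, was 4.58-fold. Against XX controls it was 1.97 ± 0.20 (limma, adjusted p = 0.000188). Between XX and XY controls the difference was 0.22, with a 95% interval from -0.20 to 0.65. Under all other settings tried the rise against XY controls ranged from 2.05 to 2.42.

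Abca6 followed Abca9 less evenly. It read 8.12, 7.18, 9.53 and 9.72 in XY FOXL2+ gonads, 6.91, 6.99, 6.83 and 6.92 in XX controls, and 7.28, 7.04, 7.15 and 6.96 in XY controls. XY FOXL2+ arrays 3 and 4 carried most of the rise, and array 2 lay inside the range of XY controls. The log2 difference was 1.53 ± 0.42 against XY controls (SE; limma, adjusted p = 0.0465) and 1.72 ± 0.42 against XX controls (limma, adjusted p = 0.0322). Against XY controls the call was lost without any 1 of the 8 control arrays or without XY FOXL2+ replicate 3 or 4 (adjusted p between 0.0661 and 0.108). Against XX controls it was lost without any 1 XX control array or XY FOXL2+ replicate 3 or 4 (adjusted p between 0.07 and 0.0902). Fits of the 2 groups alone ended both calls (limma, adjusted p = 0.14 against XY and 0.102 against XX controls). With the replicate number as a block, the call against XY controls was also lost (0.0539).

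The neighbours differed less. The log2 difference between XY FOXL2+ and XY control gonads was -0.23 for Abca8b, 0.00 for Abca8a and 0.16 for Abca5, and none of these was called. Map2k6, a kinase gene next to Abca5 that was looked up after these values were seen, differed by 0.28 and was not called. Abca5, a lysosomal member of the run, was higher in XX than in XY controls by 0.49 (limma, adjusted p = 0.00207). These genes are related in sequence, and probes shared between them were not examined here.

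**Figure D2:**
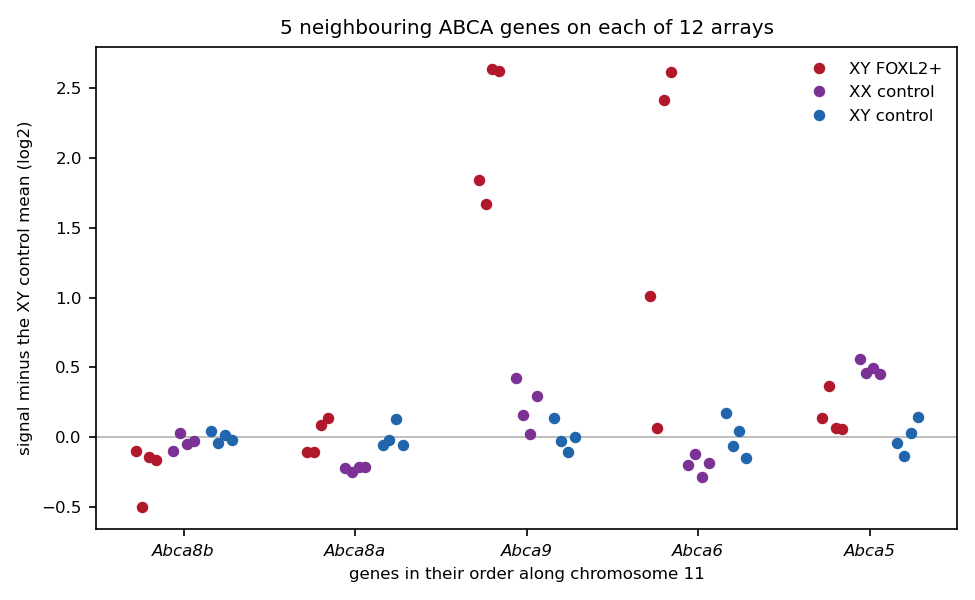
Log2 signal minus the mean of XY controls for the 5 neighbouring ABCA genes in their order along chromosome 11, 1 point per array, 4 arrays per group. XY FOXL2+ points rise for Abca9 (mean difference 2.20) and, unevenly, for Abca6 (1.53), and stay near the controls for Abca8b and Abca8a.

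Abcc9 encodes SUR2, the regulatory subunit of ATP-sensitive potassium channels in smooth muscle, heart and pericytes. It read 10.57, 10.09, 9.97 and 10.13 in XY FOXL2+ gonads, 9.37, 9.08, 8.72 and 9.26 in XX controls, and 9.54, 9.69, 9.19 and 9.06 in XY controls. Every XY FOXL2+ array lay above every control, and the controls overlapped. The log2 difference was 0.82 ± 0.18 against XY controls (SE; limma, adjusted p = 0.0146) and 1.08 ± 0.18 against XX controls (limma, adjusted p = 0.00409). The first call was lost without XY control replicate 3 (limma, adjusted p = 0.0533).

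Its partners in the channel were looked up after this was seen. The pore gene Kcnj8 read 8.49, 8.0, 7.57 and 7.60 in XY FOXL2+ gonads, 7.56, 7.32, 7.20 and 7.38 in XX controls, and 7.31, 7.71, 7.25 and 7.11 in XY controls. Its difference of 0.57 against XY controls was not called (limma, adjusted p = 0.0973). The other pore gene, Kcnj11, differed by 0.09 and was not called, and Abcc8 (SUR1, of pancreatic beta cells), named as the other regulatory subunit, read 5.88 to 6.18 over all 12 arrays.

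Some markers of other cells were also higher in XY FOXL2+ gonads than in XY controls. Of 7 macrophage genes, 4 rose in XY FOXL2+ against XY control gonads, and the mean log2 signal of the list was 7.36 to 7.50 in XY FOXL2+ gonads, 6.98 to 7.22 in XX controls and 6.97 to 7.16 in XY controls. Of 6 endothelial genes, 2 rose, with list means of 10.61 to 10.88, 10.23 to 10.47 and 10.31 to 10.63 in those groups. The part of these cells in the values of Abca9, Abca6 and Abcc9 was not tested. No list of fibroblast, smooth muscle or pericyte markers was examined.

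Of 9 members known for drug or conjugate efflux, 1 rose and 2 fell between XY FOXL2+ and XY control gonads (33.3%, against 7.12% of all clusters). Between XX and XY controls, 2 were higher and 1 lower (33.3%, against 17.4% of all clusters). Abcc1, the glutathione-conjugate and leukotriene exporter MRP1, fell in XY FOXL2+ gonads below both controls. It read 9.0, 8.79, 8.97 and 9.12 in XY FOXL2+ gonads, 9.59, 9.64, 9.57 and 9.57 in XX controls, and 9.53, 9.44, 9.52 and 9.63 in XY controls. Every XY FOXL2+ array lay below every control, and the controls overlapped. The log2 difference was -0.56 ± 0.09 against XY controls (SE; limma, adjusted p = 0.00149) and -0.62 ± 0.09 against XX controls (limma, adjusted p = 0.00127). XX against XY controls differed by 0.06, with a 95% interval from -0.12 to 0.25.

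Abcc4, the cyclic nucleotide and prostaglandin exporter MRP4, instead fell to the level of XX controls. It read 8.38, 7.99, 8.06 and 8.35 in XY FOXL2+ gonads, 8.09, 8.09, 8.22 and 7.98 in XX controls, and 8.52, 8.68, 9.11 and 9.73 in XY controls. The XY controls were the widest group and lay wholly above the others. The log2 difference against XY controls was -0.91 ± 0.21 in XX controls (SE; limma, adjusted p = 0.00832) and -0.81 ± 0.21 in XY FOXL2+ gonads (limma, adjusted p = 0.0344). The second call was lost without XX control replicate 1, 2 or 4, XY FOXL2+ replicate 2 or 3 or XY control replicate 3 (adjusted p between 0.0502 and 0.0942), and after quantile normalization (0.0769). A fit of those 2 groups alone ended it as well (limma, adjusted p = 0.113).

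Abcc2, the exporter of conjugates into bile (MRP2), read low but separated the groups. Its log2 signal was 5.85, 5.95, 5.68 and 5.65 in XY FOXL2+ gonads, 6.05, 6.00, 6.06 and 5.90 in XX controls, and 5.41, 5.41, 5.42 and 5.27 in XY controls. All values lay at or under the level of the Y-linked genes in XX controls. The differences against XY controls were 0.41 ± 0.08 in XY FOXL2+ gonads (SE, limma, adjusted p = 0.00758) and 0.63 ± 0.08 in XX controls (limma, adjusted p = 0.000129). Whether low signal made them read too small was not tested. Abcc3, another conjugate exporter of liver, was higher in XX than in XY controls by 0.20 at a signal of 6.07 in XX and 5.88 in XY controls (limma, adjusted p = 0.0356). That call was lost without any 1 XX control array or XY control replicate 1, 3 or 4 (adjusted p between 0.0559 and 0.102). A fit of those 2 groups alone (limma, adjusted p = 0.0501) and the replicate number as a block (0.086) also ended it.

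Abcc10 (MRP7), a drug exporter outside the lists by role, was higher in XX controls than in both XY groups. The log2 difference was 0.48 between XX and XY controls (limma, adjusted p = 0.00293) and -0.45 between XY FOXL2+ gonads and XX controls (limma, adjusted p = 0.0147). The second call was lost without XX control replicate 2 (limma, adjusted p = 0.0528) and in a fit of those 2 groups alone (0.0545). It averaged 7.32 ± 0.19 in XY FOXL2+ gonads, 7.77 ± 0.04 in XX controls and 7.29 ± 0.08 in XY controls (SD, n = 4 each).

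**Figure D3:**
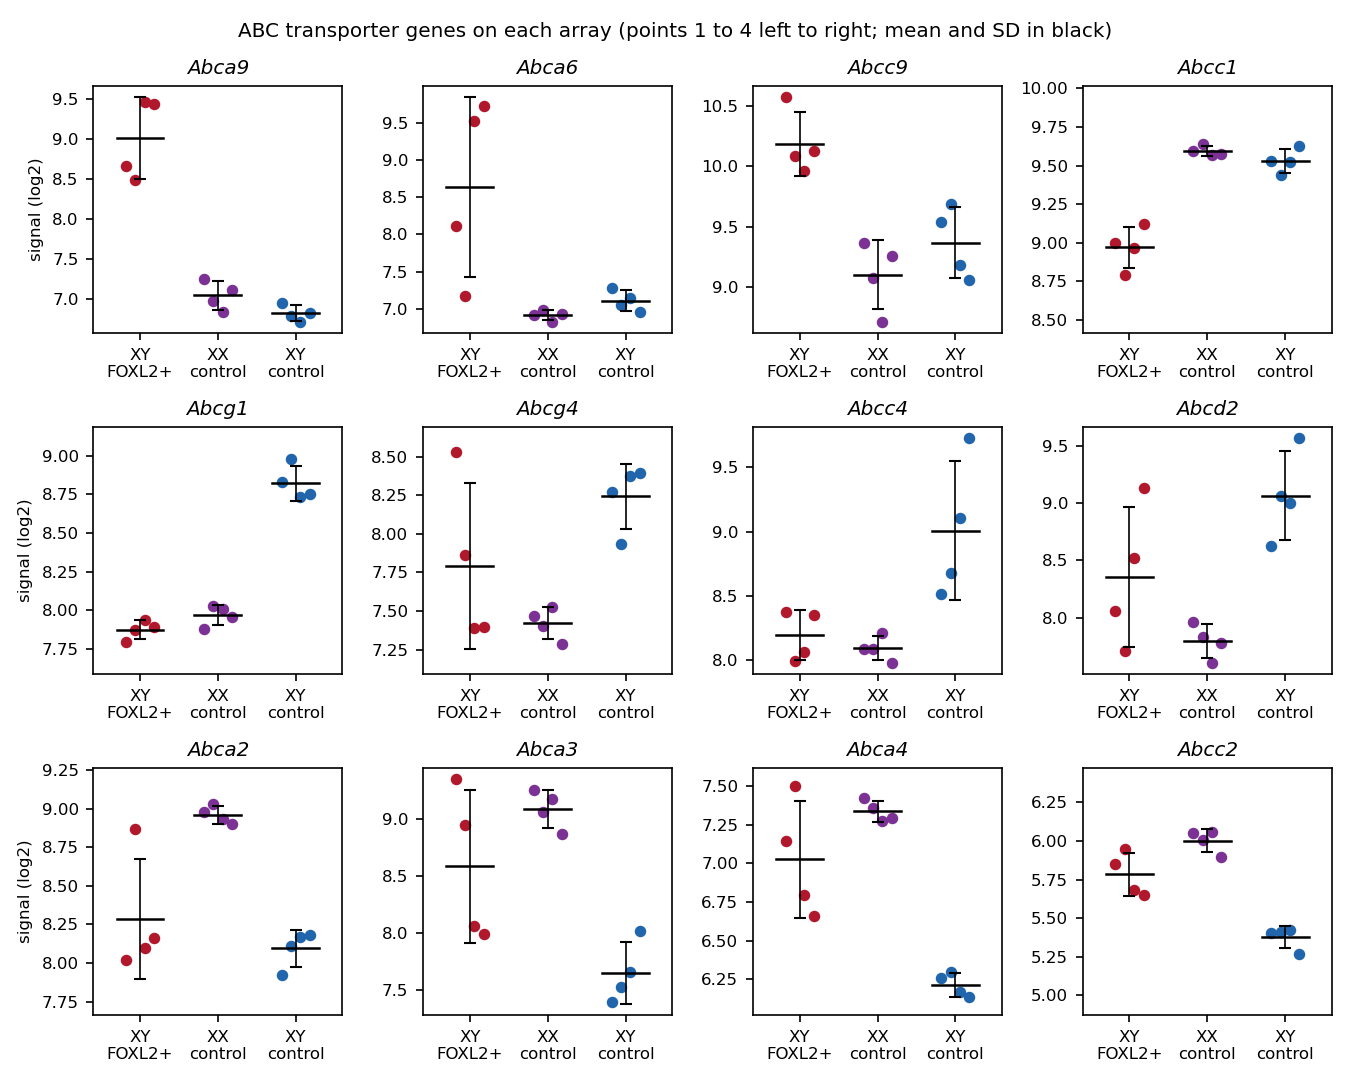
Log2 signal of 12 ABC genes on each array, with points for replicates 1 to 4 from left to right and the mean ± SD in black (n = 4 per group; the vertical scale differs between panels). Abca9 and Abcc9 were high and Abcc1 low in XY FOXL2+ gonads alone, with no overlap, while Abcg1 and Abcc4 were low in both XY FOXL2+ gonads and XX controls.

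The transporters of mitochondria and other organelles gave 0 calls among 5 measured members between XY FOXL2+ and XY control gonads in the limma fit, with 2 at an unadjusted p under 0.05. Abcb10, a mitochondrial inner-membrane protein needed for haem synthesis in red cell precursors, read 9.90, 9.64, 8.97 and 8.69 in XY FOXL2+ gonads, 8.48, 8.33, 8.72 and 8.22 in XX controls, and 9.28, 9.17, 9.31 and 9.50 in XY controls. It was lower in XX than in XY controls by a log2 difference of -0.88 ± 0.22 (SE; limma, adjusted p = 0.0144). XY FOXL2+ arrays 1 and 2 lay above and arrays 3 and 4 below all XY controls.

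The mean log2 signal of 4 erythroid genes was 10.27, 10.19, 8.30 and 7.80 on the XY FOXL2+ arrays, 8.62, 8.0, 8.68 and 8.13 in XX controls, and 8.14, 8.46, 8.34 and 8.75 in XY controls. It was thus high on the same 2 XY FOXL2+ arrays as Abcb10, and in the limma fit 0 of the 4 genes were called, with 0 at an unadjusted p under 0.05. This was not particular to erythroid genes. The granulosa cell list read 9.29, 10.04, 8.14 and 8.05 on the XY FOXL2+ arrays, and the Sertoli, Leydig and germ cell lists were lower on arrays 1 and 2 than on 3 and 4. The part of blood cells or of these other cells in the values of Abcb10 was not tested. Abcb10 was higher in XY FOXL2+ gonads than in XX controls by 0.86 (limma, adjusted p = 0.0404), a call lost without XY FOXL2+ replicate 1 or 2 or any 1 of the 8 control arrays (adjusted p between 0.0533 and 0.116), and after quantile normalization (0.0518). A fit of those 2 groups alone (limma, adjusted p = 0.113), centring on array medians (0.0682) and the replicate number as a block (0.0582) also ended it.

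Of the 4 soluble members, which pump nothing, Abce1 was the only one called. Abce1 splits ribosomes after translation, and was higher in XX than in XY controls by 0.42 (limma, adjusted p = 0.0227). It averaged 14.75 ± 0.27 in XY FOXL2+ gonads, 14.78 ± 0.10 in XX controls and 14.36 ± 0.06 in XY controls (SD, n = 4 each). The call was lost without XX control replicate 2 or XY control replicate 3 or 4 (adjusted p between 0.0566 and 0.073). Abcf1, Abcf2 and Abcf3, which act in translation and its control, differed by -0.19, 0.03 and -0.14 between XY FOXL2+ and XY control gonads. None was called, and 0 had an unadjusted p under 0.05 in the limma fit.

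Among the subfamilies, the members that rose in XY FOXL2+ against XY control gonads came from A (4 of 16) and C (2 of 10), and those that fell came from C (2 of 10) and G (1 of 6). Of the 9 B, 3 D, 1 E and 3 F members 0 were called there, while 4, 1, 1 and 0 of them had an unadjusted p under 0.05 in the limma fit. Between XX and XY controls, A had 4 higher and 1 lower, C had 3 higher and 1 lower, G had 2 lower, B and D had 1 lower each, and E had 1 higher. Between XY FOXL2+ gonads and XX controls, A had 2 higher and 1 lower, B had 1 higher, and C had 1 higher and 2 lower. Over all clusters, 7.12%, 17.4% and 5.51% were called in these 3 comparisons, so few or 0 calls in a small subfamily say little about it.

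The median log2 difference in XY FOXL2+ against XY control gonads was 0.05 in A, 0.04 in B, 0.02 in C, -0.02 in D, -0.14 in F and 0.07 in G, and 0.38 for Abce1, the 1 member of E. Between XX and XY controls it was -0.04 in A, -0.02 in B, 0.00 in C, -0.23 in D, 0.42 in E, 0.00 in F and 0.02 in G. Between XY FOXL2+ gonads and XX controls it was 0.04 in A, 0.11 in B, -0.03 in C, 0.21 in D, -0.03 in E, -0.13 in F and 0.10 in G. Over all 48 members the median was 0.03 in XY FOXL2+ against XY control gonads, -0.01 between XX and XY controls and 0.05 between XY FOXL2+ gonads and XX controls. Over all clusters it was 0.0031, -0.0329 and 0.0325 in these comparisons. The 2 groups of arrays did not overlap for 12 members (25%) in XY FOXL2+ against XY control gonads, against 12.2% of all clusters. Between XX and XY controls this held for 19 members (39.6%), against 25.4% of all clusters, and between XY FOXL2+ gonads and XX controls for 15 members (31.2%), against 11.5%.

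**Figure D4:**
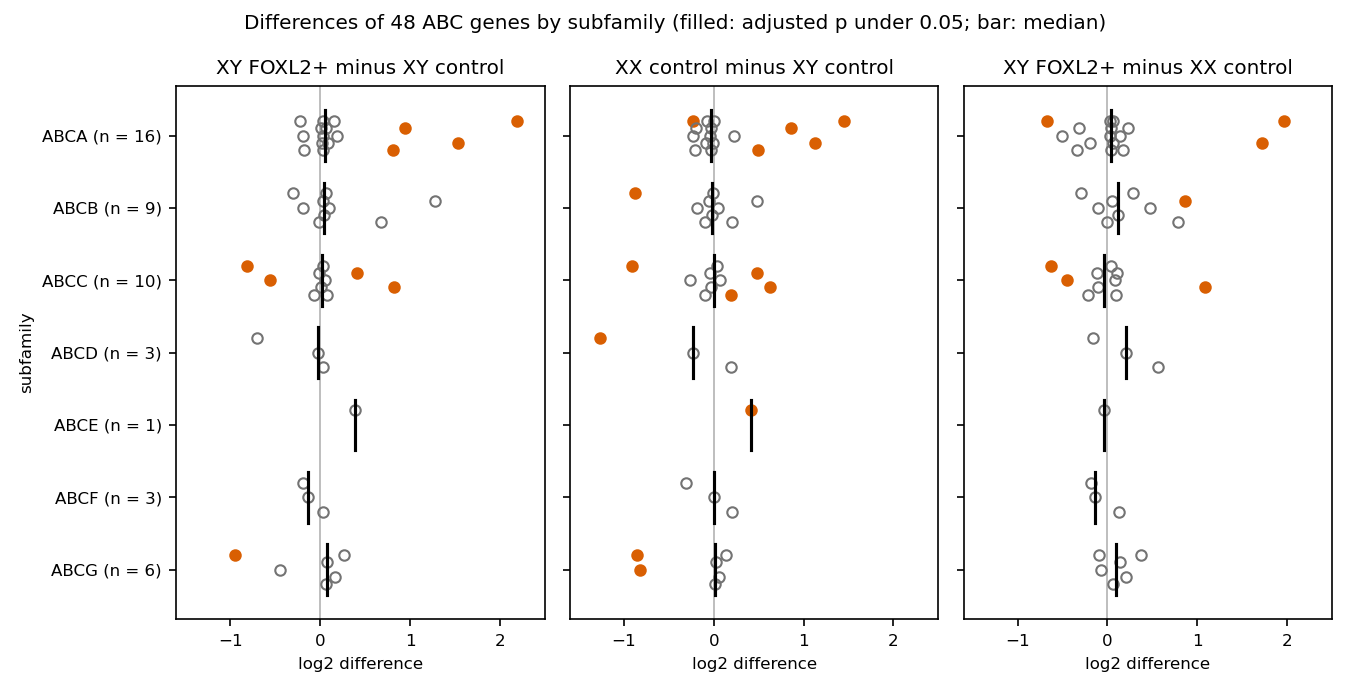
Log2 difference of each of the 48 ABC genes by subfamily in the 3 comparisons, 4 arrays per group, with calls filled (adjusted p under 0.05) and the subfamily median as a bar. Most members lie near 0, and the calls come from a few members of subfamilies A, C and G, with single calls elsewhere.

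In all, 30 members were called in no comparison. Their log2 differences ran from -0.30 to 1.27 in XY FOXL2+ against XY control gonads, and from -0.31 to 0.48 between XX and XY controls. Of the strongly read ones, Abcg2, a pump for drugs and porphyrins, differed by 0.26 in XY FOXL2+ against XY control gonads, with a 95% interval from 0.03 to 0.50 and an adjusted p of 0.189 in the limma fit. Abcb6, a porphyrin-linked organelle protein, differed by -0.30, with an interval from -0.58 to -0.02 (limma, adjusted p = 0.222). For Abcc5, an exporter of cyclic nucleotides, the interval was -0.27 to 0.14, and for Abcd3, a fatty acid transporter of peroxisomes, it was -0.20 to 0.16.

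The largest difference without a call belonged to Abcb4, which moves phosphatidylcholine into bile. It read 9.53, 7.54, 6.62 and 6.46 in XY FOXL2+ gonads, 6.94, 6.65, 7.03 and 6.36 in XX controls, and 6.17, 6.23, 6.17 and 6.49 in XY controls, and is named after its values were seen. XY FOXL2+ array 1 stood far above the rest, and array 2 also lay above every control. The erythroid and granulosa cell lists were highest on these 2 arrays of the group as well. The part of such cells in the values of Abcb4 was not tested. Of the 30 uncalled members, 15 had signals at or below the median of all clusters.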

How the data were processed

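RNA of 12 gonad samples was hybridised to 1-colour Affymetrix arrays, 1 sample per array, after 100 ng of RNA was amplified and labelled with the WT Plus kit, per the labels' protocols. The table used holds log2 values as deposited by the authors, 1 per transcript cluster and array. They run from 2.60 to 19.49 with array medians of 6.149 to 6.296. They were read as log2 because of that range. Their logarithm base, background correction and normalization were not found in the labels or headers, and with another base all differences would be rescaled and the tests kept. No depth exists for arrays, and their number limits the precision.

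Of 72688 entries, 6732 control probe sets were left out and 65956 clusters were tested with no filter on signal. The platform annotation, with older symbols updated through RefSeq, named 31438 clusters with 1 symbol. It gave several symbols for 1312 clusters and none for 33206, and these were not named. Where a gene had several clusters, that with the highest mean stood for it.

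Groups came from the sample titles. A linear model was fitted to all 12 arrays with limma 3.58.1 (R 4.3.3), its variances moderated along a signal trend by eBayes, leaving 9 residual degrees of freedom, with Benjamini-Hochberg adjustment over all clusters. Intervals are 95% intervals of that fit. Errors are standard errors of the fit or SDs between arrays, as named. An exact two-sided permutation test of 4 against 4 arrays has 70 assignments and cannot go below p = 0.0286.

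Genes named with values were the 5 sterol transporters, every member called in any comparison, and uncalled members with a mean signal of at least 8.54. Abcc8, Abca8a, Abca8b, Abcb4, Abcb1a and Abcb1b lie outside this rule and were added after their values were seen. Values on each array were given for the members with the largest called differences. The members, the lists by role and the marker lists were chosen with earlier results of these data known. Promoter sequences came from RefSeq on GRCm38.p6. The alternatives were quantile normalization, centring on array medians, clusters above the median signal only, a fit of 2 groups, no intensity trend, array weights, the replicate number as a block and leaving out each array.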

Additional observations from a re-analysis of the deposited data

Results flagged for a closer look

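Of 84 groups of 4 arrays checked for the 28 named members, 5 held an array whose gap to its nearest neighbour, as a share of the group's range, was above Dixon's 95% critical value, and chance gives about 1 such group in 20. Abcc2 read 5.27 on XY control replicate 4, against 5.41 to 5.42 on the other 3. Abcc3 read 6.0 on XY FOXL2+ replicate 4 and 5.94 on the others. Abcc10 read 7.84 on XX control replicate 2, against 7.74 to 7.76. Abcf1 read 11.07 on XY FOXL2+ replicate 1, against 10.46 to 10.54. Abcg5 read 6.19 on XX control replicate 4, against 5.97 to 6.0.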

How the results depend on the processing

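Under 19 other settings, 12 of which left out 1 array, 18 of the 30 calls of named members held in every setting that tested them (18 settings for Abca12, Abcc2, Abcc3, Abcg5 and Abcg8, which lie outside the test of clusters above the median signal), and 0 differences of a called member changed direction. Of 12 differences that were not called, 11 stayed so, the exception being Abcg4 in XY FOXL2+ against XY control gonads, which was called with array weights (limma, adjusted p = 0.0164) and without XY FOXL2+ replicate 1. Calls that leaving out 1 array ended are given with the genes. For XY FOXL2+ against XY control gonads the count of 9 members ranged from 5 (without XY control replicate 3) to 11 when 1 array was left out, and was 6 in a fit of those 2 groups alone, where 2700 clusters were called against 4698. For XX against XY controls the count of 14 ranged from 11 to 17 without 1 array, and quantile normalization gave 9 higher and 4 lower, against 8 and 6. For XY FOXL2+ gonads against XX controls the count of 7 was 13 with array weights (6752 clusters against 3635) and 3 in a fit of those 2 groups alone (1916 clusters), where fewer arrays estimate the spread. Without 1 array that count ranged from 3 (XX control replicate 2) to 9, with 4 without XX control replicate 1, 3 or 4. Centring on array medians gave 3 higher and 4 lower there, against 4 and 3. The cause of the other shifts was not tested. With the replicate number as a block the counts were 7, 12 and 6 in these 3 comparisons. Arrays with the same number had correlated deviations between -0.0906 and 0.179, not all above 0.1, and not every array correlated best with its own number, so the block was not used. A gene's next cluster could not be tried, since no member has over 1. Low signals limit what could be seen for the 18 members at or below the median of all clusters.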

Other observations

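Genes of ABC proteins whose symbols lie outside the naming rule were also read. Tap1, which feeds peptides to class I antigen presentation, had log2 signals of 6.85, 6.91, 6.72 and 6.84 in XX controls, against 6.62, 6.47, 6.56 and 6.49 in XY controls, with no overlap. Tap1 was higher in XX controls by 0.30 (limma, adjusted p = 0.00784), and its partner Tap2 differed by -0.04 and was not called. Cftr, the chloride channel of the C subfamily, read 6.70, 6.64, 6.76 and 6.99 in XY FOXL2+ gonads, 6.58, 6.54, 6.49 and 6.52 in XX controls, and 6.58, 6.60, 6.84 and 7.48 in XY controls, and was called in none of the 3 comparisons.

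The P-glycoprotein gene Abcb1a, which pumps drugs at blood-tissue barriers, read 8.38, 8.56, 7.58 and 7.57 in XY FOXL2+ gonads, 7.72, 7.59, 7.41 and 7.47 in XX controls, and 7.16, 7.30, 7.46 and 7.48 in XY controls. Every XY FOXL2+ array lay above every XY control, and arrays 1 and 2 stood highest, as they did for Abcb10, but the difference of 0.67 was not called (limma, adjusted p = 0.0663). Its copy Abcb1b differed by 0.10. Whether these 2 related genes share probes was not examined here, and both are named after their values were seen. The SD between arrays of a member had a median of 0.155 in XY FOXL2+ gonads, 0.066 in XX controls and 0.096 in XY controls, against 0.163, 0.116 and 0.131 over all clusters.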
